A study of Mus musculus with 6 samples.

Results

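The macrophages of lymph nodes line the sinuses through which lymph passes and fill the medulla. They take up particles, dying cells and pathogens with scavenger receptors, make the complement protein C1q, and depend on the growth factor receptor encoded by Csf1r. The genes described here are 10 genes of these cells, taken from a list of names. They encode the surface receptors Siglec1, Marco, Cd163, Mrc1 and Timd4, the C1q subunits C1qa, C1qb and C1qc, the secreted protein Cd5l, and Csf1r. Each array spot was named through its transcript accession in RefSeq's table. By that route 8 of the 10 genes had a probe, with 1 probe each, among 37045 genes tested. Mrc1 and Csf1r were given no probe by this rule and are not analysed here.

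The study measured mesenteric lymph nodes of naive adult mice on 6 arrays, and by its title asked which genes depend on TNF made by T and B cells. B_TNF_KO is the group whose strain label is B-TNF KO, with 3 arrays, all labelled male. TB_TNF_KO is the group labelled TB-TNF KO double, with 3 arrays, of which replicate 2 is labelled female and the others male. Both groups thus lack TNF in B cells by their labels, and the comparison adds its loss in T cells. No sample with intact Tnf was analysed here, and the labels do not name the promoters that drive the deletions. Each sample was RNA from the nodes of 3 pooled mice, labelled with Cy3. The Cy5 channel of every array held the same pool of RNA from cultured mouse cell lines, an alveolar macrophage line among them.

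Tnf, the targeted gene, had log2 ratios to the reference of 0.19, 0.36 and 0.49 in B_TNF_KO and of -0.66, -0.63 and -0.84 in TB_TNF_KO, in the direction the labels give. The array has 2 probes for Tnf, and these values are those of its brightest probe alone. Markers of the lymphocytes of a node were high, with median log2 ratios to the reference of 1.95 to 2.53 for B cell markers and 2.58 to 3.01 for T cell markers on the 6 arrays. Some arrays stood apart. Markers of exocrine pancreas, a neighbouring organ, had a median log2 ratio of 4.52 and 4.62 on B_TNF_KO arrays 1 and 2 and of 4.99 and 5.06 on TB_TNF_KO arrays 1 and 2, but 0.06 and 0.02 on replicate 3 of each group. Y-linked genes had medians of -2.06 and -1.95 on TB_TNF_KO arrays 1 and 2, the first of which is labelled male, and of 0.05 to 1.61 on the other arrays. TB_TNF_KO arrays 1 and 2 also differed little from each other. Their sample channels differed with a spread 1.13 times that of their reference channels. Among the 14 other pairs of arrays this factor was 1.32 to 2.12. These arrays were therefore averaged and counted as 1 sample, so n is 3 against 2. Each day of image analysis in the file headers held arrays of 1 group, so day and group cannot be told apart. Median background-subtracted intensity was 144 to 203 in the sample channel and 280 to 362 in the reference channel.

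The probes are shown because each gene rests on a single one. Each line gives bases 31 to 60 of a probe 60 bases long, 5′ to 3′, as printed in the scanner files, and capitals mark the polyadenylation signal AATAAA where the script found it.
Siglec1: aatacagtgaccacagcatgacagggtctt
Marco: gtgtctttggttccacccacatggaaatct
Cd163: tatgtgatcacagtgcatcatgtccaaata
Timd4: gtcctcaatgacatgtcacacgggagggat
C1qa: tctttaagcactttctggAATAAAcgatcc
C1qb: cggggtcaaattacacctatccaacaccat
C1qc: ggccatttatcaataccttatgagactatt
Cd5l: ttagaagaagaaggtcgttggagtgtgcct
The 3 C1q subunits are related proteins, but their probes shared no run of bases longer than 6, and over all pairs of the 8 probes the longest shared run was 8 bases (Cd163 and Cd5l). None of the 40998 other probes on the array shared a run of 20 bases with any of the 8. The GC content of the probes was 38.3% (C1qc) to 55% (Marco).

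Every one of the 8 genes was higher in the nodes than in the reference RNA on all 6 arrays. The share of all genes for which this held was not counted. The sample was in Cy3 and the reference in Cy5 on every array, so a probe's dye bias cannot be told apart from its ratio. The highest ratios belonged to Marco, C1qa and C1qc, whose ranges over the arrays overlapped those of no other gene. Marco ranged over log2 ratios of 5.43 to 6.33, C1qa over 5.06 to 5.32 and C1qc over 4.08 to 4.45. Siglec1 (2.73 to 3.17) and C1qb (2.73 to 3.01) lay below these and overlapped each other, and Cd163 (1.61 to 2.61) and Timd4 (1.63 to 2.10) lay lower still, also overlapping. Cd5l (1.95 to 3.79) overlapped all 4 of them and has no place in that order. These are ratios to each probe's own reference signal, so their order is not an order of transcript abundance. The ratio's denominator differed in quality. The reference spots of Marco and the C1q subunits measured 826 to 2435 after background subtraction, while those of Siglec1, Cd163, Timd4 and Cd5l measured 68 to 271, below the median reference spot of every array. All 8 probes were well above background in both channels of all 6 arrays.

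**Figure D1:**
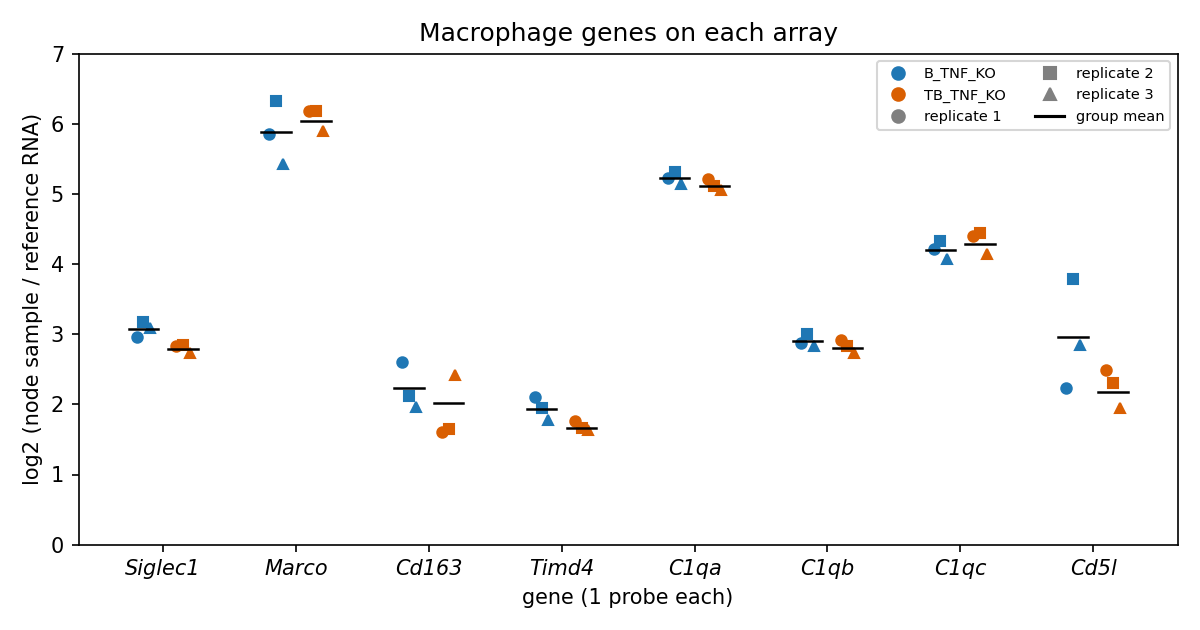
Log2 ratio of lymph node sample to reference RNA (vertical axis) for the 8 measured genes (horizontal axis), 1 point for each array, with the marker shape giving the replicate number and the bar the group mean, in which TB_TNF_KO arrays 1 and 2 count as 1 sample. Siglec1 and Timd4 are the genes whose groups do not overlap, and Cd5l has the widest range (1.85).

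No measured gene of the set differed between the knockouts at an adjusted p under 0.05. In limma 0 of 8 passed, and over all genes tested 4 passed in the lower direction, which is 0.0108%, and 0 in the higher direction. At an unadjusted p under 0.05 there were 2 genes of the 8 lower, Siglec1 and Timd4, and 0 higher, beside 11.3% lower and 5.03% higher of all genes. These were also the 2 of 8 whose TB_TNF_KO arrays all lay below the B_TNF_KO arrays, which held for 17.2% of all genes. The reverse separation, seen for 0 of the 8, held for 10.7%. The share of all genes lower at an unadjusted p under 0.05 fell with the probe's GC content. It was 23.2% in the lowest bin of GC content and 2.96% in the highest. The bin of Siglec1, Cd163, C1qa and C1qc had 11.6%, and that of Timd4, Marco, C1qb and Cd5l 4.24%. With a GC correction Siglec1 and Timd4 each differed by -0.29, and neither passed (limma adjusted p 0.133 and 0.219). Mean log ratios were lower in TB_TNF_KO for 6 of the 8, against 55% of all genes, and the median difference was -0.16, against -0.01 for all genes. In bulk nodes fewer macrophages and less RNA in each macrophage cannot be told apart. All differences below are TB_TNF_KO minus B_TNF_KO on the log2 scale, with limma's standard error, 95% interval and Benjamini-Hochberg adjusted p. The series text calls each pool of 3 mice an independent sample.

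Among the surface receptors, Siglec1 encodes sialoadhesin (CD169), the lectin that marks macrophages of the subcapsular sinus and medulla. Its log2 ratios were 2.96, 3.17 and 3.09 in B_TNF_KO and 2.84, 2.85 and 2.73 in TB_TNF_KO. All 3 TB_TNF_KO values were lower than the lowest B_TNF_KO value, though the gap between 2.85 and 2.96 was smaller than the range within B_TNF_KO. The difference was -0.28 (SE 0.07, interval -0.47 to -0.10), which is 1.22-fold lower. It did not pass (adjusted p = 0.141). The sample channel on its own gave -0.36 (SE 0.12, adjusted p = 0.175), again without overlap, and the reference channel -0.17 (SE 0.13). Background-subtracted sample intensities were 813, 753 and 1009 in B_TNF_KO and 576, 519 and 552 in TB_TNF_KO. The median sample intensities of these arrays were 174, 159 and 203 against 144, 145 and 166, and those overlapped between the groups. With array weights on the 6 arrays the adjusted p was 0.028, a setting that counts TB_TNF_KO arrays 1 and 2 as separate samples and calls 7.98% of all genes lower and 2.43% higher.

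Timd4, encoding the phosphatidylserine receptor TIM-4 with which macrophages bind dying cells, had log2 ratios of 2.10, 1.95 and 1.78 in B_TNF_KO and 1.77, 1.66 and 1.63 in TB_TNF_KO. The groups did not overlap, but the lowest B_TNF_KO and the highest TB_TNF_KO array lay next to each other. The difference was -0.27 (SE 0.09, interval -0.50 to -0.04, adjusted p = 0.240). In the sample channel alone the groups overlapped, with values relative to the array's 75th percentile of -0.73, -1.14 and -1.22 against -1.05, -1.13 and -1.41. That difference was -0.22 (SE 0.18, adjusted p = 0.530). Its spots were dim, 192 to 339 in the sample channel and 68 to 108 in the reference channel. With the replicate number as a block on the 6 arrays Timd4 passed at -0.26 (adjusted p = 0.0387), in a fit that calls 6.48% of all genes lower and 1.84% higher and counts TB_TNF_KO arrays 1 and 2 separately. The blocked fit left the other 7 genes not called, Siglec1 at an adjusted p of 0.0518.

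Marco encodes a class A scavenger receptor of medullary and sinus macrophages. It had log2 ratios of 5.86, 6.33 and 5.43 in B_TNF_KO and 6.18, 6.19 and 5.90 in TB_TNF_KO, so the TB_TNF_KO values lay inside the B_TNF_KO range. The difference was 0.17 (SE 0.25, interval -0.45 to 0.78, adjusted p = 0.810). Its sample spot was saturated on B_TNF_KO array 3 and measured 39485 to 65147 over the 6 arrays. The sample channel gave 6.90, 6.90 and 6.81 against 6.99, 7.06 and 6.43, a difference of -0.14 (SE 0.18). Its direction thus depended on the channel used, and without B_TNF_KO replicate 3 the log ratio difference was -0.06. The sample channel difference was 0.15 without TB_TNF_KO replicate 3 and 0.12 with replicate 3 left out of both groups.

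Cd163, the haemoglobin scavenger receptor, varied more within the groups than between them. Log2 ratios were 2.61, 2.12 and 1.96 in B_TNF_KO and 1.61, 1.65 and 2.42 in TB_TNF_KO. The difference was -0.20 (SE 0.28, interval -0.88 to 0.47, adjusted p = 0.787). It was -0.73 with replicate 3 left out of both groups (adjusted p = 0.481), where TB_TNF_KO has 1 sample, and replicate 3 of TB_TNF_KO lay 0.46 above replicate 3 of B_TNF_KO. The reference spot, the same RNA on every array, measured 220 and 207 on TB_TNF_KO arrays 1 and 2 and 96 to 140 on the other 4. The sample spot on those 2 arrays measured 345 and 314, close to the 332 and 400 of B_TNF_KO arrays 2 and 3. The sample channel alone gave a difference of 0.04 (SE 0.30), and without B_TNF_KO replicate 1 the log ratio difference was -0.01. The part of the reference signal in the low ratios was not tested beyond these values.

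The C1q subunits join as trimers into the recognition molecule of the classical complement pathway, and tissue macrophages are a main source. C1qa had log2 ratios of 5.23, 5.32 and 5.15 in B_TNF_KO and 5.21, 5.11 and 5.06 in TB_TNF_KO, and the groups overlapped. Its difference of -0.13 (SE 0.06, interval -0.28 to 0.03, adjusted p = 0.415) did not pass, with means of 5.23 ± 0.08 (SD, n = 3) and 5.11 ± 0.07 (SD, n = 2). C1qb had 2.87, 3.01 and 2.83 against 2.92, 2.84 and 2.73, again with overlap, and differed by -0.10 (SE 0.07, interval -0.28 to 0.09, adjusted p = 0.599).

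C1qc had 4.22, 4.33 and 4.08 against 4.40, 4.45 and 4.15 and differed by 0.08 (SE 0.10, interval -0.18 to 0.33, adjusted p = 0.786). The intervals of the 3 subunits thus reached no further than -0.28 on the low side and 0.33 on the high side. Their ranges over the 6 arrays were 0.26 for C1qa, 0.28 for C1qb and 0.36 for C1qc, the narrowest of the 8 genes.

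The single-channel C1q signals had lower means in TB_TNF_KO in both dyes, though no difference passed. Relative to the array's 75th percentile, the B_TNF_KO sample channels gave C1qa at 5.58, 5.74 and 5.84 and the TB_TNF_KO ones at 5.46, 5.46 and 5.34, which differ by -0.32 (SE 0.12, adjusted p = 0.209). C1qb was 3.27, 3.40 and 3.60 against 3.01, 2.94 and 3.00, a difference of -0.44 (SE 0.13, adjusted p = 0.154). C1qc was 4.41, 4.40 and 4.50 against 4.30, 4.03 and 3.97, a difference of -0.37 (SE 0.11, adjusted p = 0.161). No TB_TNF_KO array reached the B_TNF_KO range for any of the 3 subunits. Sample-channel means were lower in TB_TNF_KO for 7 of the 8 genes, against 46.5% of all genes.

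The reference channel, which holds the same RNA on every array, also had lower C1q means in TB_TNF_KO. C1qa differed there by -0.23 (SE 0.12), C1qb by -0.38 (SE 0.16) and C1qc by -0.50 (SE 0.13, adjusted p = 0.224). For each of the 3 subunits the TB_TNF_KO arrays lay below the B_TNF_KO arrays in the reference channel too, which held for 19.1% of all genes (13.7% the other way). Such separation in the sample channel held for 4 of the 8 genes (C1qa, C1qb, C1qc and Siglec1), against 15.3% of all genes (18.3% the other way). At an unadjusted p under 0.05, 4 of 8 were lower in the sample channel, against 8.68% of all genes. For the reference channel it was 1 of 8 (C1qc), against 9.89%. Higher by the same threshold were 0 of 8 in each channel, against 11.8% and 9.6%. Reference-channel means were lower for 5 of the 8, against 55.1% of all genes. None passed the adjusted threshold in either channel, nor did any gene on the array at this scaling. At this scaling 3215 genes were lower and 4358 higher at an unadjusted p under 0.05 in the sample channel, and 3665 and 3556 in the reference channel.

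With the sample channel quantile normalised instead, C1qa differed by -0.14, C1qb by -0.25 and C1qc by -0.17, each smaller than with the 75th percentile, and none of the 8 genes passed (0.764% of all genes were lower and 0.683% higher). C1qa then had 14.30, 14.51 and 14.62 against 14.28, 14.47 and 14.29, so its groups overlapped, as did those of C1qc. C1qb remained separate, at 12.09, 12.23 and 12.40 against 11.98, 12.03 and 11.97, as 17.3% of all genes did. By the same step the reference channel differences were -0.19, -0.35 and -0.47. C1qb and C1qc were separate there and C1qa overlapped, beside 18.9% of all genes separate in that direction. The lower C1q sample signal thus stood beside a lower reference signal, and its size depended on the scaling.

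**Figure D2:**
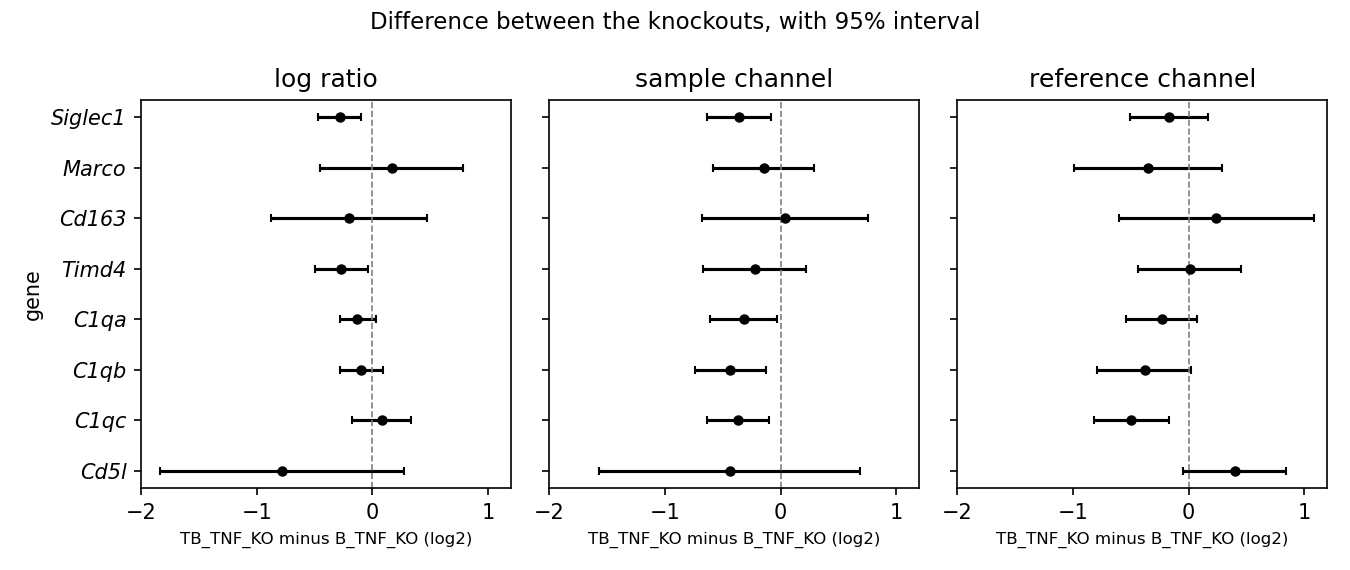
TB_TNF_KO minus B_TNF_KO (horizontal axes, log2) with the 95% interval from limma for the 8 genes (vertical axis), in the log ratio, the sample channel and the reference channel. The 3 C1q subunits sit near 0 in the log ratio (-0.13, -0.10 and 0.08) but below 0 in both single channels.

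Cd5l, encoding the secreted macrophage protein AIM with scavenger receptor cysteine-rich domains, had the largest difference and the widest spread of the 8. Its log2 ratios were 2.23, 3.79 and 2.85 in B_TNF_KO and 2.49, 2.31 and 1.95 in TB_TNF_KO. The groups overlapped because B_TNF_KO array 1 was lower than TB_TNF_KO arrays 1 and 2. Means were 2.96 ± 0.79 (SD, n = 3) and 2.18 ± 0.32 (SD, n = 2). The difference was -0.78 (SE 0.43, interval -1.84 to 0.27, adjusted p = 0.449).

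Of the background-subtracted Cd5l spots, sample intensities were 503, 1515 and 1175 in B_TNF_KO and 623, 619 and 560 in TB_TNF_KO, so the 3 TB_TNF_KO arrays were alike and the B_TNF_KO arrays were not. Reference intensities were 134, 160 and 198 against 209, 271 and 233. From the sample channel alone the difference was -0.44 (SE 0.47), and the reference channel differed by 0.40 (SE 0.17). A single array moved the size of the difference, from -0.36 without B_TNF_KO replicate 2 to -1.15 without B_TNF_KO replicate 1, and it passed in neither case (adjusted p 0.550 and 0.196). The same arrays moved the sample channel difference to -0.03 and -0.90.

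The 8 genes did not follow each other over the arrays as a block. The 6 arrays share a reference, and TB_TNF_KO arrays 1 and 2 may hold 1 RNA. Over them the log ratios of C1qa and C1qb had a Pearson r of 0.93, C1qa and C1qc 0.23, and Siglec1 and Cd163 0.05. Other pairs were also close, with 0.88 for Siglec1 and Cd5l and 0.86 for Marco and C1qc. The lowest r of any pair was -0.62, for Cd163 and C1qc. Sample channel values of the C1q subunits had r of 0.84 to 0.95 with one another and of 0.84 to 0.97 with Siglec1, but Cd163 had r of -0.46 to -0.11 with them. These values are descriptions, and the scaling of the array enters all of them.

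Among 5315 genes with a symbol that varied at least as much as the C1q mean, those with the most similar log ratios over the 6 arrays were Klk1b11 (r = 0.979), Fut7 (0.977), Ltbr (0.977), Ccl3 (0.975) and Arhgdig (0.972). For Siglec1 they were H1f2 (0.999), Abcb9 (0.998) and Dll4 (0.994), among 1631 genes compared. H1f2 differed between the groups by -0.49, Abcb9 by -0.29 and Dll4 by -0.34. All these genes were picked as the highest r of many over 6 arrays, so high values come with the choice, and no test was made. Klk1b11 was lowest on replicate 3 of both groups, at 0.79 in B_TNF_KO and 0.55 in TB_TNF_KO.

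Other genes of macrophages also had no called changes, but over all genes only 0.0108% passed lower and 0 higher. The counts past the threshold in the lists below stand beside the same shares. Those shares depended on the settings. Over all genes 4 passed as reported, 201 with probes saturated on any array left out, and 487 with eBayes set to trend and robust. Of the list of macrophage identity genes and receptors, 23 of 30 were measured and 0 passed the adjusted threshold. At an unadjusted p under 0.05, 6 were lower and 1 higher (over all genes 11.3% and 5.03%), and the median difference was -0.09. The shares of all genes were not matched for probe GC content, here or for the lists below. The smallest p belonged to Adgre1, encoding the macrophage surface antigen F4/80, at -0.41 (SE 0.09, adjusted p = 0.0948), and to Tyrobp, an adaptor of myeloid receptors, at -0.23 (SE 0.05, adjusted p = 0.0963). Their sample channels differed by -0.47 and -0.41. The medullary macrophage lectin gene Cd209b was at -0.22 (SE 0.13, adjusted p = 0.514), and Apoe, the apolipoprotein gene, at 0.57 (SE 0.21, adjusted p = 0.251). In the sample and reference channels Cd209b differed by -0.60 and -0.42, and Apoe by 0.35 and -0.29.

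Of the other scavenger receptors 12 of 16 were measured, and 0 passed. By unadjusted p 6 were lower and 0 higher (over all genes 11.3% and 5.03%), with a median of -0.17. The 6 include the lymphocyte surface genes Cd5 at -0.17 and Cd6 at -0.36. Cd6 differed by 0.16 in the sample channel and by 0.50 in the reference channel. In the sample channel 3 of the list were lower and 0 higher by unadjusted p (over all genes 8.68% and 11.8%). Stab1, a scavenger receptor of sinusoidal endothelium and macrophages, was at -0.35 (SE 0.07, adjusted p = 0.0870), and Cxcl16, which acts as chemokine and scavenger receptor, at -0.17 (SE 0.04, adjusted p = 0.132). Stab1 differed by only -0.11 in the sample channel and by 0.21 in the reference channel. Msr1, which encodes scavenger receptor A as a relative of Marco, was at -0.13 (SE 0.14).

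Of the complement genes outside C1q 18 of 25 were measured, again with 0 past the threshold. By unadjusted p 4 were lower and 1 higher (over all genes 11.3% and 5.03%), with a median of -0.06. C2, a protease of the classical pathway, was at -0.31 (SE 0.08, adjusted p = 0.148). The partner proteases of C1q, C1ra and C1s1, were at -0.11 (SE 0.06) and -0.01 (SE 0.07). C3, the central component, was at 0.45 (SE 0.17, adjusted p = 0.271). In the sample and reference channels C2 differed by -0.16 and 0.12, and C3 by 0.27 and -0.24.

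Of the ligands and niche signals of node macrophages 15 of 16 were measured and 0 passed. By unadjusted p 3 were lower and 1 higher (over all genes 11.3% and 5.03%), with a median of -0.03. Csf1 and Il34, which encode the ligands of the Csf1r receptor, were at 0.09 (SE 0.10) and 0.03 (SE 0.05). Tnf was at -1.09 (SE 0.10, adjusted p = 0.0529), without overlap between the groups, and Tnfsf11, encoding RANKL, at -0.37 (adjusted p = 0.0530). Tnfsf11 differed by only -0.08 in the sample channel and by 0.44 in the reference channel.

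**Figure D3:**
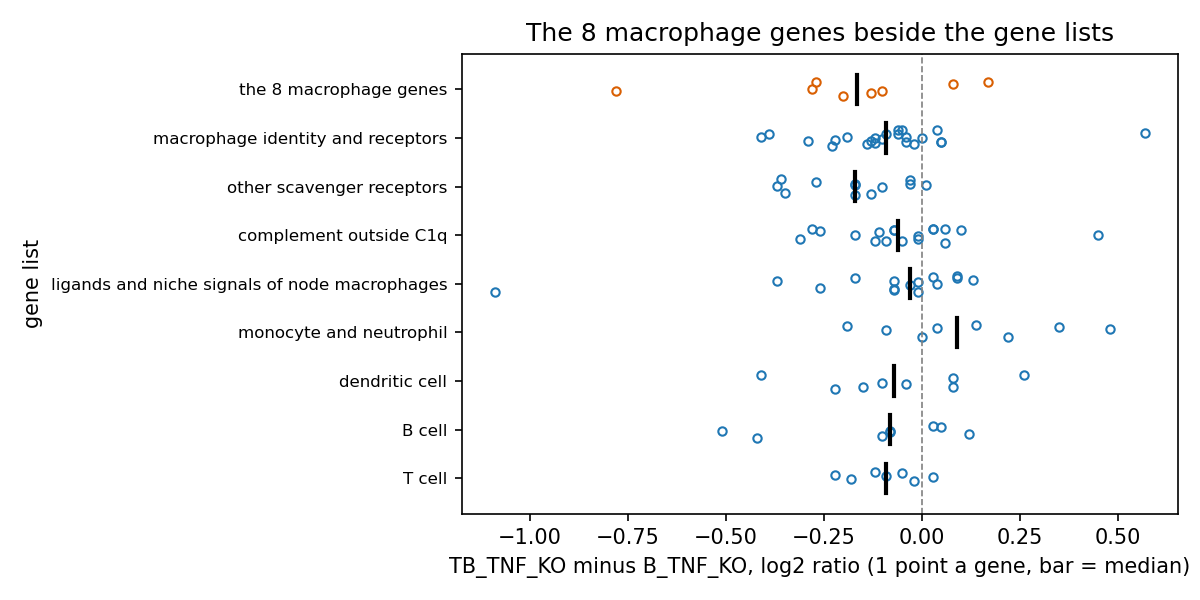
Difference TB_TNF_KO minus B_TNF_KO in the log ratio (horizontal axis, log2), 1 point a gene with the median as a bar, for the 8 macrophage genes and for 8 gene lists (vertical axis). The median of the 8 genes (-0.16) lies beside that of the other scavenger receptors (-0.17), and the outlying point at -1.09 is Tnf.

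Markers of other cell types were measured beside these genes. Their median differences were 0.09 for monocytes and neutrophils (8 of 11 measured), -0.07 for dendritic cells (8 of 11), -0.08 for B cells (8 of 8) and -0.09 for T cells (7 of 9). They were -0.17 for lymphatic endothelium (7 of 8), -0.09 for node stroma (8 of 8), -0.03 for adipocytes (9 of 10), -0.32 for exocrine pancreas (12 of 20) and -1.10 for Y-linked genes (3 of 4). The marker genes past the threshold were Lyve1 in the lymphatic list at -1.22 (adjusted p = 0.00807; -0.61 in the sample and 0.64 in the reference channel) and Cxcl13 in the stroma list at -1.56 (adjusted p = 0.0256; -2.16 and -0.90). The smallest p in the other lists belonged to S100a8 at 0.48 and Ltf at 0.14, Fscn1 at -0.41 and Ccr7 at -0.22, Blk at -0.51 and Cd79a at -0.42, and Lck at -0.22 and Cd8b1 at -0.18. For pancreas they were Cela2a at -1.14 and Prss2 at -0.88, for adipocytes Lpl at -0.38 and Cidec at -0.33, and for the Y chromosome Eif2s3y at -1.77 and Ddx3y at -1.10. None of these genes passed. In the sample and reference channels S100a8 differed by 0.46 and -0.09, and Ltf by 0.84 and 0.65.

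The summed sample signal of the macrophage identity list, in multiples of the array's 75th percentile, spanned 358 to 414 over the B_TNF_KO arrays and 352 to 425 over the others, and the groups overlapped. That of the other scavenger receptors was 35.7 to 37.4 against 31.6 to 33.7, without overlap. T cell markers summed to 64.3 to 72.3 against 55.6 to 63.7, also without overlap. So did the ligands and niche signals, Tnf among them, at 54.2 to 61.5 against 45.3 to 50. B cell markers summed to 73.7 to 76.7 against 59.4 to 77.4, with overlap, and the sums of the remaining lists overlapped too. Of single genes on the array, 15.3% separated in this direction in the sample channel and 18.3% in the other. The part of cell composition in the lower Siglec1 and Timd4 ratios was not tested.

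The differences of Siglec1, Timd4, C1qa, C1qb and Cd5l were below 0 under all 24 alternatives run, the sample channel alone and single arrays left out among them. They lay between -0.36 and -0.22 for Siglec1, -0.35 and -0.16 for Timd4, -0.32 and -0.08 for C1qa, -0.44 and -0.02 for C1qb, and -1.15 and -0.36 for Cd5l. Marco, Cd163 and C1qc took both signs (Marco over 23 alternatives), from -0.14 to 0.40, -0.73 to 0.04 and -0.37 to 0.21. Only Timd4 and Siglec1 passed the threshold under any of them, Timd4 in 2 of 24 and Siglec1 in 1 of 24.

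**Figure D4:**
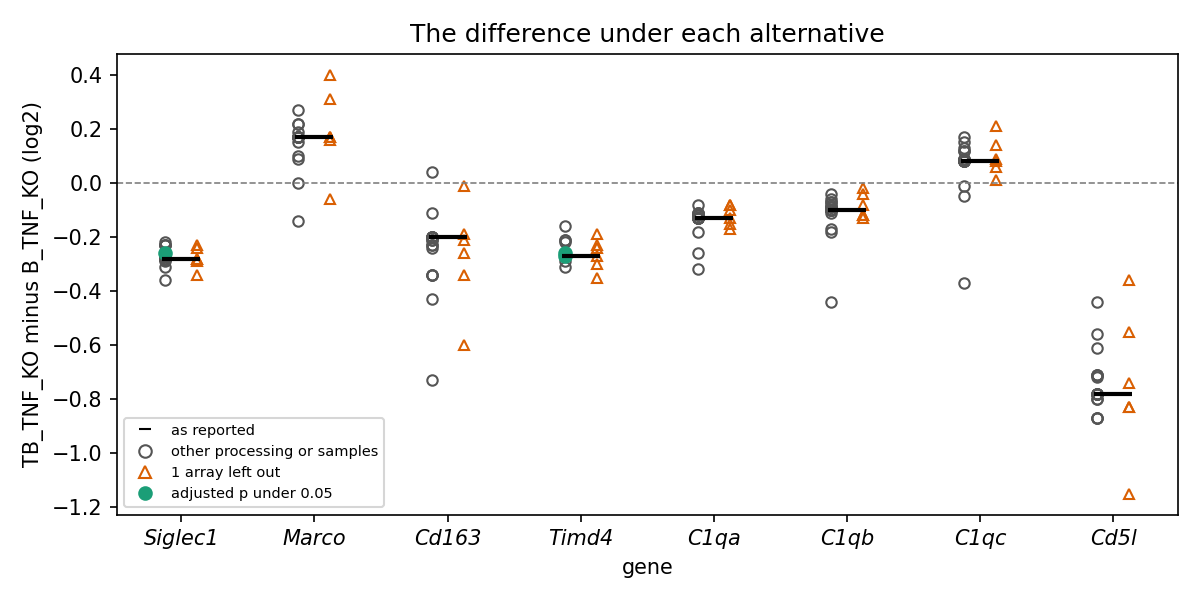
Difference TB_TNF_KO minus B_TNF_KO (vertical axis, log2) for each gene (horizontal axis) as reported, under other processing or choices of samples, and with 1 array left out. Filled points mark an adjusted p under 0.05, which occur for Siglec1 (-0.26) and Timd4 (-0.26 and -0.27).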

How the data were processed

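The members and gene lists were chosen with earlier results of these data known. Per the file headers, the array images were analysed with Agilent Feature Extraction A.7.5.1. The deposited files give mean spot and local background intensity in both channels, processed intensity, and log10 ratios (red over green). A value table of the series, also deposited on a log10 scale whose centring is unstated, served only as an alternative.

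Mean intensities were background corrected with normexp (offset 50) and normalised by loess within array in limma 3.58.1 (R 4.3.3), then turned to log2 of sample over reference. Control spots and 228 outlier spots were left out. Probes well above background on at least 3 arrays were kept (40789 of 41006), and a gene was taken by its brightest probe. Of 41034 spots, 15303 got a symbol from RefSeq's GRCm38.p6 table. Single channels are log2 processed intensity minus the array's 75th percentile. The groups were compared with lmFit and eBayes at an adjusted p under 0.05, over 37045 genes. The code was tested on simulated data. Named genes were the 8 measured members, the most similar genes by Pearson r (5 for C1q, 3 for Siglec1), and, of each of 13 lists, those past the threshold or else the 2 with the smallest p; others named were chosen after their values were seen. The result of 1 gene that this rule names is not reported here.

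Samples with replicate number 2 or 3 deviated together (r across genes 0.52 and 0.62). Those with number 1 hardly did (0.14), and TB_TNF_KO array 1 followed B_TNF_KO array 2 more closely (0.41). As TB_TNF_KO arrays 1 and 2 differed little, these values are not independent of each other. The number of arrays limits the precision. Figures were drawn with matplotlib 3.10.9.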

Additional observations from a re-analysis of the deposited data

How the results depend on the processing

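Alternatives for the single channels, other than the sample channel at its 75th percentile, were chosen after the data were seen. Of the 8 genes 0 were called higher or lower, and the same held under each alternative run except 3. With the replicate block on the 6 arrays 1 was called lower (Timd4, -0.26), with the GC correction and the replicate block 1 (Timd4, -0.27), and with array weights 1 (Siglec1, -0.26). These fits count TB_TNF_KO arrays 1 and 2 separately and called up to 3858 genes on the array, against 4. The calls over all genes ranged from 0 to 3858 on the log ratio and from 0 to 536 in the sample channel. With 3 samples against 2, the log ratio gave 201 calls with saturated probes left out and 487 with eBayes set to trend and robust. The replicate block changed no other call. The median difference of -0.16 was -0.34 with the sample channel alone and -0.22 to -0.12 with single arrays left out. In the sample channel the median was -0.21 after quantile normalisation, -0.20 with replicate 3 left out of both groups and -0.38 to -0.23 with single arrays left out. The cause was not tested. Marco had no value where saturated probes were left out.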
